A study of Drosophila melanogaster with 32 samples.

Results

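The odorant receptor family of Drosophila melanogaster was examined in RNA sequencing libraries of male heads, from 4 strains and at up to 3 times around a training procedure. Members were the genes whose symbol is Orco or starts with Or, a number and a letter. The rule found 60 of the 17559 genes in the count files, namely Orco and 59 receptors. They lie on 5 chromosome arms, with 10 on 2L, 15 on 2R, 11 on 3L, 16 on 3R and 8 on X.

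The labels name the strains by genotype only, as hsp70-, w+hsp70-, hsp70-1c and hsp70-4c, and give neither the ages of the flies nor what 1c and 4c stand for. Naive flies and flies taken 5 h after training were sampled in all 4 strains, and flies taken 24 h after training in hsp70-1c and hsp70-4c. The 10 groups held 4 naive hsp70-1c and 4 naive hsp70-4c libraries and 3 libraries of every other group, 32 in all, each from the heads of a pool of about 100 males. The series is about Hsp70, the inducible heat shock chaperone, and memory formation, and the labels do not describe the training. Strain, genetic background and the batch in which a strain was reared or sequenced cannot be told apart.

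In the adult fly, odours are detected by olfactory neurons housed in hair-like sensilla of the antenna and the maxillary palp. Most of these neurons express 1 or a few odorant receptors, which set which odours the cell answers to, together with the co-receptor Orco, which carries the receptor to the cilium and forms the ion channel with it. Other olfactory neurons use ionotropic receptors (Ir genes) or gustatory receptors for carbon dioxide in place of odorant receptors. Support cells around the neurons secrete odorant binding proteins (Obp genes) into the fluid of the sensillum. Several receptors are known only from the larval olfactory organ.

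The label checks and the depth of the libraries set what can be read from these genes. In naive flies w, the white eye pigment transporter gene, averaged 0.205 CPM (counts per 1000000 reads assigned to genes, on scaled library sizes) in hsp70- against 83.2 CPM in w+hsp70-, and 9.22 CPM in hsp70-1c against 30.5 CPM in hsp70-4c. Hsp70Bc, whose reads are uncertain because the Hsp70 genes are near-identical copies, averaged 0.0769 CPM in naive hsp70-1c and 5.23 CPM in naive hsp70-4c, and had no read in the naive hsp70- and w+hsp70- libraries. Photoreceptor and neuronal markers of the head were present, with ninaE, the main rhodopsin, at 18550.1 to 29589.5 CPM and nSyb, a synaptic vesicle protein, at 502 to 543 CPM in the naive group means. The neuronal marker elav was at only 0.415 to 0.988 CPM in those means, with 0 to 10 reads in a naive library; 27.9% of its exon bases are shared with another gene on its strand. Libraries held 4542145 to 10344890 reads assigned to genes. The 60 members together took 44701 reads, which was 0.01932% of the assigned reads, or 677 to 2132 reads a library. This depth sets wide errors on most receptors, and 42 to 56 members had a read in any 1 library.

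A limit of the counts touches some members. The library kit marks the strand of the RNA, but whether the counting used it is not given in the sources used here. Reads set aside as ambiguous were 1.063 to 1.449% of a library, and reads that fell in no counted feature were 58.15 to 68.66%. In 20 pairs of genes in which a noncoding gene lay on the opposite strand within the exons of a well-read coding gene, the read density of the noncoding gene was above that of the coding gene in 14 pairs, with a median ratio of 1.66 and a range from 0.017 to 6.04. In 26 pairs in which a gene lay within the exons of a well-read coding gene on its own strand, none was at 0 reads and the median ratio was 0.909. Which strand's reads a count holds, and how reads in shared bases were divided, was thus not settled, and a member's count may hold reads of an overlapping gene. Of the 60 members, 51 shared no exon bases with another gene and 7 shared bases with a gene on the opposite strand. At the mean read density of the opposite gene, the shared bases would hold 28% of the CPM of Or43b (opposite Cul1), 10.5% of that of Or45b (opposite asRNA:CR45281), 36% of that of Or46a (opposite asRNA:CR43467) and 80.8% of that of Or47a (opposite Cpr47Ea). For Or88a (opposite asRNA:CR44237) the same sum was 77.6%, and for Or67b (opposite Cyp40) and Or83a (opposite CG1172) it was 218% and 274% of the member's whole CPM. The part of these genes in the members' counts was not tested.

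Orco (FBgn0037324, on chromosome 3R from 5407183 to 5412406 of build dm6, minus strand) was the most abundant member per kilobase. Over the 32 libraries it averaged 32.2 CPM per kilobase of exon (SD 9.81, n = 32) and took 33.3% of all member reads. Or43b, an antennal receptor, came next at 29.2 CPM per kilobase (SD 5.19, n = 32), with the reservation on Cul1 given above. The next, Or92a, was much lower, at 5.62 CPM per kilobase (SD 2.35). Or42b followed at 3.68 (SD 1.40), Or59b at 2.94 (SD 1.35), Or47b at 2.89 (SD 0.863), Or63a at 2.81 (SD 1.09), Or45b at 2.52 (SD 1.55), Or67d at 2.42 (SD 0.713) and Or13a at 2.41 (SD 0.944) CPM per kilobase. Between Or43b and Or92a the step was larger than either SD, and all other neighbours among these 10 differed by less than the larger of their SDs. Or92a and Or42b mark neurons that respond to vinegar odours, Or59b responds to acetate esters, Or47b to odours of other flies, and Or67d to the male pheromone cis-vaccenyl acetate.

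**Figure D1:**
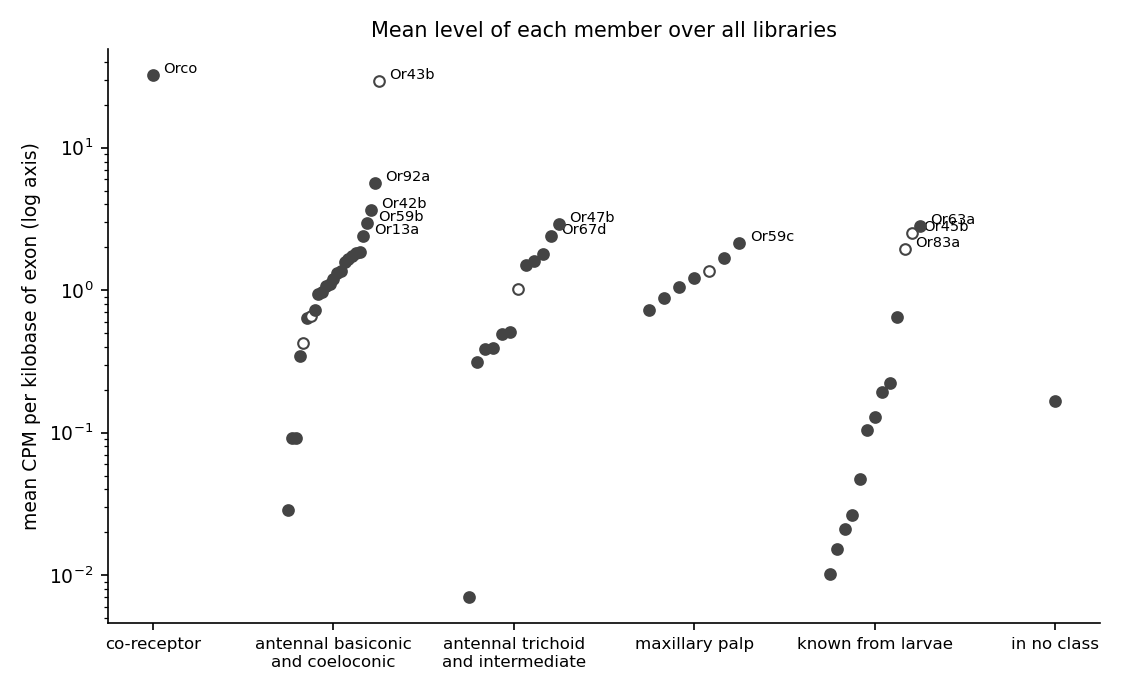
Mean CPM per kilobase of exon of each member over the 32 libraries, on a log axis, by the sensillum class in which the receptor is known. Orco and Or43b stand above 29 CPM per kilobase and the next member is at 5.62; open circles are members that share exon bases with a gene on the opposite strand, and Or10a, with no read, is not drawn.

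All classes of receptor were present, at different levels. The 26 receptors of antennal basiconic and coeloconic sensilla had a median of 1.15 CPM per kilobase, and 18 of them averaged at least 1 CPM. The 12 receptors of antennal trichoid and intermediate sensilla had a median of 0.761 CPM per kilobase. The 7 receptors of the maxillary palp had a median of 1.22, and each of the 7 had a read in all 32 libraries. The 13 receptors known from larvae and not placed in adult olfactory neurons had a median of 0.128 CPM per kilobase, and Or63a, Or45b and Or83a were the only 3 of them that averaged at least 1 CPM. Or63a shared no exon bases with another gene, while Or45b and Or83a did.

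At the low end, Or10a had no read in any library, and neither had Gr10a, which shares all of its annotated exon bases on the same strand. Reads that fit both genes may have been set aside, so the 0 sets no limit on its level. Or19a had 2 reads in all, whereas its near-identical duplicate Or19b had 407, and how reads were divided between these copies is uncertain. In all, 59 of the 60 members had a read, 38 had a read in every library, and 19 were too low to be tested in any comparison.

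Orco was lower in hsp70- than in hsp70-1c and hsp70-4c. In naive flies it read 65.7, 66.3, 78.8 and 73.0 CPM in the hsp70-1c libraries and 81.3, 80.9, 92.0 and 80.4 CPM in the hsp70-4c libraries. It read 39.2, 38.1 and 29.7 CPM in the hsp70- libraries and 57.2, 57.2 and 35.5 CPM in the w+hsp70- libraries. The hsp70- libraries all lay below every library of the other strains but the lowest of w+hsp70-.

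In naive flies Orco was 2.0-fold lower in hsp70- than in hsp70-1c (log2 difference -1.0, SE 0.15, edgeR's quasi-likelihood test, adjusted p = 5.61e-04) and 2.33-fold lower than in hsp70-4c (-1.22, SE 0.15, adjusted p = 2.22e-05). It was 1.67-fold lower in w+hsp70- than in hsp70-4c (-0.74, SE 0.14, adjusted p = 0.00237), while the difference from hsp70-1c did not pass the test (-0.52, SE 0.14, adjusted p = 0.0599). The tests between hsp70-4c and hsp70-1c (0.22, SE 0.13, adjusted p = 0.386) and between w+hsp70- and hsp70- (0.48, SE 0.16, adjusted p = 0.447) did not pass either. Without the third naive w+hsp70- library, the lowest of that strain, Orco passed the test between w+hsp70- and hsp70- (0.68, SE 0.13, adjusted p = 0.0334). In whole heads, fewer olfactory neurons and less of these RNAs in each neuron cannot be told apart.

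**Figure D2:**
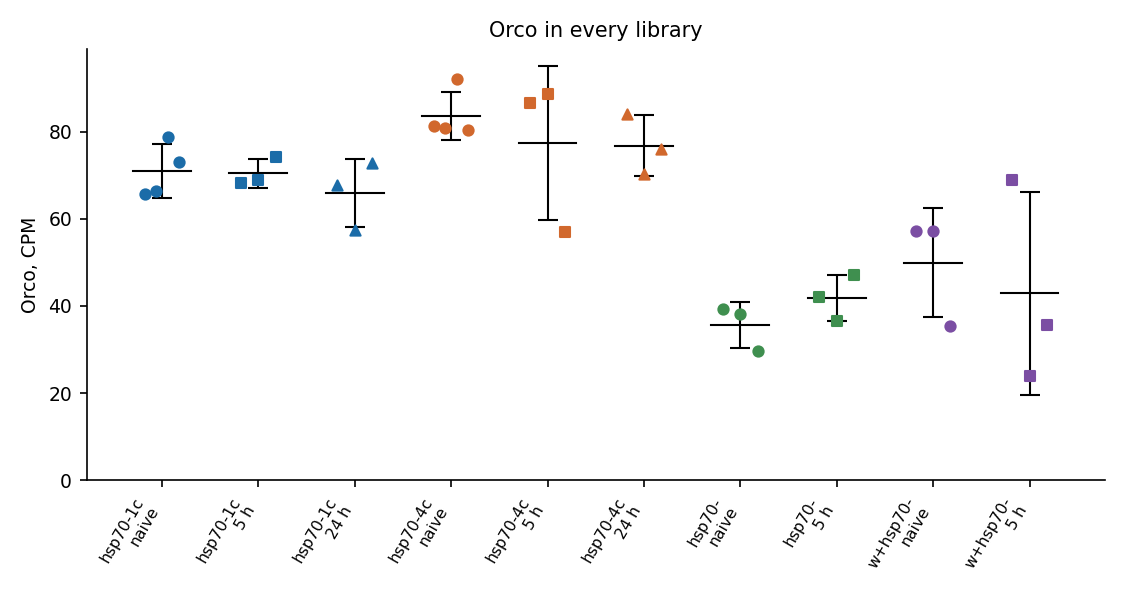
CPM of Orco in each of the 32 libraries, by strain and time; points are libraries and bars are the mean and SD of 3 or 4 libraries. The naive hsp70- libraries sit between 29.7 and 39.2 CPM and the naive hsp70-4c libraries between 80.4 and 92.0 CPM, while w+hsp70- libraries spread from 24.0 to 68.9 CPM.

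Single libraries stood apart in Orco, and in some of them the summed genes of the support cells stood apart too. Among w+hsp70- flies at 5 h, Orco read 68.9, 24.0 and 35.7 CPM, and the summed level of 13 genes of the fluid and support cells of olfactory sensilla was 7750, 5803 and 6424 CPM in the same order. In the naive w+hsp70- libraries, in which Orco read 57.2, 57.2 and 35.5 CPM, that sum was 7506, 6600 and 5759 CPM. The third hsp70-4c library at 5 h read 57.0 CPM of Orco against 86.6 and 88.7 CPM in the other two, with a sum of 6754 against 9166 and 9352 CPM. In that library the ionotropic receptors summed to 79.2 CPM against 49.4 and 69.2 CPM, and the receptors without Or43b to 92.0 CPM against 95.0 and 104 CPM, so that the first sum was the highest of the 3 and the second only slightly the lowest. The naive hsp70-4c library with the highest Orco, at 92.0 CPM, had the lowest support-cell sum of its group, at 7422 CPM. The summed pan-neuronal genes did not follow the same order, at 1171, 1141 and 1192 CPM in the w+hsp70- libraries at 5 h. How much antennal tissue each pool of heads held was not tested.

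In naive flies, 35 of the 60 members had enough reads to be tested between strains, and 25 did not. Between hsp70- and hsp70-1c, 7 of the 35 members passed the test and all 7 were lower in hsp70-, where 7.53% of all 10462 genes tested passed and 5.68% passed as lower. They were Orco, the antennal receptors Or92a, Or42b, Or59b, Or22b and Or85b, and the palp receptor Or46a. The median log2 difference over the 35 members was -0.53, and 28 of them were below 0, with a median over all genes of -0.001. Among the 29 tested members that shared no exon bases with another gene, 6 passed.

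Or92a (3R, 20504788 to 20506186, plus strand) and Or59b (2R, 23470165 to 23471775, minus strand) were also lower in hsp70-. Or92a read 6.97, 7.81, 7.99 and 9.83 CPM in naive hsp70-1c, 11.6, 8.94, 11.3 and 8.01 CPM in naive hsp70-4c and 3.03, 2.70 and 2.95 CPM in naive hsp70-. No hsp70- library reached the range of the other strains, and Or92a was 2.80-fold lower than in hsp70-1c (log2 -1.48, SE 0.27, adjusted p = 0.00215) and 3.41-fold lower than in hsp70-4c (-1.77, SE 0.26, adjusted p = 0.000135). Or59b read 4.25, 7.51, 5.53 and 3.59 CPM in naive hsp70-1c, 5.28, 5.79, 4.69 and 6.44 CPM in naive hsp70-4c and 1.62, 0.624 and 1.89 CPM in naive hsp70-. It was 3.79-fold lower than in hsp70-1c (-1.92, SE 0.41, adjusted p = 0.00650) and 3.94-fold lower than in hsp70-4c (-1.98, SE 0.40, adjusted p = 0.00228). Orco, Or92a and Or59b passed these tests whichever naive library was left out.

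The vinegar receptor Or42b read 4.37, 6.04, 5.84 and 7.56 CPM in naive hsp70-1c and 3.44, 1.46 and 2.95 CPM in naive hsp70-, without overlap (log2 -1.17, SE 0.28, adjusted p = 0.0138). Or22b, an ester receptor that lies beside the similar Or22a, read 4.14, 2.36, 2.46 and 3.40 CPM in naive hsp70-1c and 1.42, 1.04 and 0.842 CPM in naive hsp70- (-1.48, SE 0.35, adjusted p = 0.0122). Or85b differed by -1.35 (SE 0.38, adjusted p = 0.0338) and Or46a by -0.83 (SE 0.25, adjusted p = 0.0461). Each of these 4 fell short of the threshold when some libraries were left out, Or46a in 5 of 7 such fits and Or85b in 4 of 7. Without the third naive hsp70- library, 4 members passed in place of 7.

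Between hsp70- and hsp70-4c, the strain comparison with the most called genes, 13 of the 35 members passed, where 15.9% of all genes did. Of these, 11 were lower in hsp70- and 2 were higher, against 9.01% and 6.9% of all genes. The median log2 difference of the members was -0.84, and that of all genes was 0.007. The lower members again held Orco, Or92a, Or59b, Or22b (-1.91, SE 0.33, adjusted p = 0.000554), Or85b (-1.38, SE 0.38), Or42b (-0.96, SE 0.28) and Or46a (-0.95, SE 0.24). They also held Or45b (-1.84, SE 0.33), Or47a (-1.60, SE 0.52) and the palp receptor Or85e, which read 3.35, 1.97, 2.63 and 3.55 CPM in naive hsp70-4c and 0.809, 1.46 and 0.421 CPM in naive hsp70- (-1.65, SE 0.43, adjusted p = 0.0123). The last was Or88a (-1.29, SE 0.43, adjusted p = 0.0446), opposite asRNA:CR44237 and outside the rule for named genes. Or88a had 10, 10, 19 and 16 reads in the naive hsp70-4c libraries and 2, 3 and 5 in hsp70-. It entered the test mainly through hsp70-4c, where it is high, and through no hsp70- library. Or88a was tested in 5 of the 7 fits that left out a library and lost the call in 2. Or47a had 13, 13, 15 and 7 reads in the naive hsp70-4c libraries, 3 to 11 in hsp70-1c and 4, 1 and 2 in hsp70-. It had enough reads to be tested only through hsp70-4c, where it is high. It was tested in 4 of the 7 fits that left out a library. The place of Or47a and of Or88a among the lower members thus gives no support of its own. The members that were higher in hsp70- were Or43b (0.52, SE 0.09, adjusted p = 0.000733) and Or63a (1.01, SE 0.24, adjusted p = 0.00762). Among the 29 members that shared no exon bases, 7 were lower and 1 was higher, and without the third naive hsp70- library 7 members passed in place of 13.

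Or47a, Or45b and Or88a need the reservation on overlapping genes. Cpr47Ea, the gene opposite Or47a, was itself lower in naive hsp70- than in hsp70-4c (-3.25, SE 0.31, adjusted p = 7.20e-07), and so was asRNA:CR45281, the gene opposite Or45b (-2.73, SE 0.38, adjusted p = 5.80e-05). The gene opposite Or88a, asRNA:CR44237, averaged 0.480 CPM in naive hsp70- and 1.81 CPM in naive hsp70-4c, with no overlap of the libraries, but did not pass (-1.87, SE 0.79, adjusted p = 0.114). The part of the opposite genes in the strain differences of these receptors was not tested.

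In w+hsp70- fewer members passed than in hsp70-, in comparisons that share the hsp70-1c and hsp70-4c libraries. Against hsp70-1c none of the 35 members passed edgeR's quasi-likelihood test, where 3.15% of all genes did. At an unadjusted p under 0.05 there were 8 members, and DESeq2's Wald test called 1. Counts at an unadjusted p, here and below, are given without the share of all genes at that p and are not results about the members. The median log2 difference was -0.18, with 26 members below 0. Medians of the members, here and in the strain comparisons below, are given without the median over all genes. They are not read as a shift of the family. Against hsp70-4c, 9 of 35 members passed, where 9.91% of all genes did, and the median was -0.56. Lower in w+hsp70- were Orco, Or22b (-1.34, SE 0.29), Or45b (-1.31, SE 0.29), Or59c (-1.39, SE 0.31), Or85b (-1.15, SE 0.34), Or85f (-1.19, SE 0.32) and Or92a (-0.78, SE 0.23). Higher were Or19b (2.26, SE 0.46) and Or43b (0.42, SE 0.09). The 7 lower and 2 higher members stood against 5.35% and 4.56% of all genes.

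Of these, Or59c, a palp receptor, read 6.05, 3.42, 3.77 and 7.23 CPM in naive hsp70-4c and 1.96, 1.27 and 2.52 CPM in naive w+hsp70-, without overlap (adjusted p = 0.00626). Or85f, which with Or49a serves neurons that detect parasitoid wasps, read 2.32, 2.5, 2.4 and 3.02 CPM in naive hsp70-4c and 1.05, 1.45 and 0.841 CPM in naive w+hsp70- (adjusted p = 0.0221). In naive hsp70-, by contrast, Or85f read 3.23, 2.5 and 2.32 CPM, overlapping the range of hsp70-4c. Or85b, Or92a and Or85f lost the call when some libraries were left out, in 5, 4 and 3 of 7 fits.

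Between w+hsp70- and hsp70-, which both had no read of Hsp70Bc in naive flies, no member passed edgeR's quasi-likelihood test in naive flies, where 0.287% of all genes did, and 6 members had an unadjusted p under 0.05. DESeq2's Wald test called none. The median log2 difference of the 35 members was 0.23. Or92a read 6.32, 7.80 and 3.19 CPM in naive w+hsp70- against 3.03, 2.70 and 2.95 CPM in hsp70- (0.98, SE 0.30, adjusted p = 0.352), so that the groups did not overlap but the difference did not pass. Without the third naive w+hsp70- library, 2 members passed.

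Between hsp70-4c and hsp70-1c the called members went in both directions. In naive flies 5 of 35 members passed, where 10.1% of all genes did. Of these 2 were higher and 3 lower in hsp70-4c, against 4.22% and 5.9% of all genes, and the median log2 difference of the members was 0.11. The higher ones were Or45b and the palp receptor Or71a, which responds to phenolic odours. The lower ones were Or19b, a receptor for citrus terpenes, Or43b and Or63a. Among the 29 members that shared no exon bases, Or71a was higher and Or19b and Or63a were lower. In 6 of the 8 fits that left out a library, all but those without the third of either strain, 3 members passed.

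Or71a (3L, 15076907 to 15078447, minus strand) read 1.77, 0.589, 2.15 and 1.70 CPM in naive hsp70-1c and 3.86, 3.55, 2.86 and 4.07 CPM in naive hsp70-4c (log2 1.14, SE 0.33, adjusted p = 0.0312). The naive groups did not overlap, but the call was lost in 6 of 8 fits that left out a library. At 5 h, in other libraries of the same strains, Or71a read 0.918, 0.569 and 1.56 CPM in hsp70-1c and 4.72, 4.94 and 5.68 CPM in hsp70-4c (2.36, SE 0.34, adjusted p = 0.000271), and there the call held in each such fit. At 24 h it read 1.45, 2.68 and 1.27 CPM in hsp70-1c and 3.17, 4.13 and 4.88 CPM in hsp70-4c (1.20, SE 0.33, adjusted p = 0.0828). In naive hsp70- it read 3.23, 0.832 and 1.47 CPM and in naive w+hsp70- 1.35, 1.45 and 1.85 CPM, and neither strain passed against naive hsp70-4c. Or71a lies in an intron of Plp, which did not pass the test between hsp70-4c and hsp70-1c in naive flies (0.16, adjusted p = 0.403).

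Or45b (2R, 9559598 to 9561068, plus strand) read 2.13, 2.5, 1.02 and 3.02 CPM in naive hsp70-1c and 9.13, 5.00, 6.74 and 5.12 CPM in naive hsp70-4c (log2 1.63, SE 0.27, adjusted p = 0.000351). It was called at 5 h as well (1.52, SE 0.29, adjusted p = 0.00351). Over all times no hsp70-4c library was below 3.32 CPM and no library of the other strains was above 3.02 CPM. The opposite gene asRNA:CR45281 was also higher in naive hsp70-4c (1.70, SE 0.27, adjusted p = 0.000209), and the same reservation holds.

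Or19b (X, 20094398 to 20095767, plus strand) read 1.54, 1.77, 3.48 and 5.48 CPM in naive hsp70-1c and 1.03, 0.394, 0.343 and 1.05 CPM in naive hsp70-4c (log2 -2.08, SE 0.43, adjusted p = 0.00285). It was lower in hsp70-4c at 24 h, at 0.151, 0.399 and 0.386 CPM against 2.17, 2.68 and 2.17 CPM in hsp70-1c (-2.81, SE 0.44, adjusted p = 0.00505). There it had 1, 3 and 3 reads in hsp70-4c and 18, 18 and 17 in hsp70-1c. It had enough reads to be tested at 24 h only through hsp70-1c, where it is high. The call at 24 h thus gives no support of its own. At 5 h the values were 0.655, 0.871 and 0.604 CPM in hsp70-4c against 1.49, 1.23 and 1.43 CPM in hsp70-1c, and the difference did not pass. Between hsp70- and hsp70-4c Or19b did not pass in naive flies or at 5 h. In w+hsp70- it read 3.31, 3.63 and 3.19 CPM in naive flies and 2.96, 3.36 and 3.43 CPM at 5 h, and was higher than in hsp70-4c at both times (2.26 and 2.18, adjusted p = 0.00289 and 0.00256). Its count depends on how reads shared with Or19a were treated.

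Or43b (2R, 7920835 to 7922604, minus strand) read 48.8, 48.6, 44.9 and 49.5 CPM in naive hsp70-1c and 34.5, 29.1, 35.3 and 31.1 CPM in naive hsp70-4c (log2 -0.58, SE 0.08, adjusted p = 0.000107). Its other naive values were 48.7, 43.1 and 46.9 CPM in hsp70- and 44.4, 40.8 and 44.2 CPM in w+hsp70-, all above the hsp70-4c range. The opposite gene Cul1 did not pass the test between naive hsp70-4c and hsp70-1c (-0.17, SE 0.07, adjusted p = 0.164). Or63a, known from larvae, read 7.92, 5.01, 4.00 and 5.48 CPM in naive hsp70-1c and 3.22, 3.16, 3.66 and 3.68 CPM in naive hsp70-4c (-0.72, SE 0.22, adjusted p = 0.0441), and lost the call in 7 of 8 fits without a library.

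**Figure D3:**
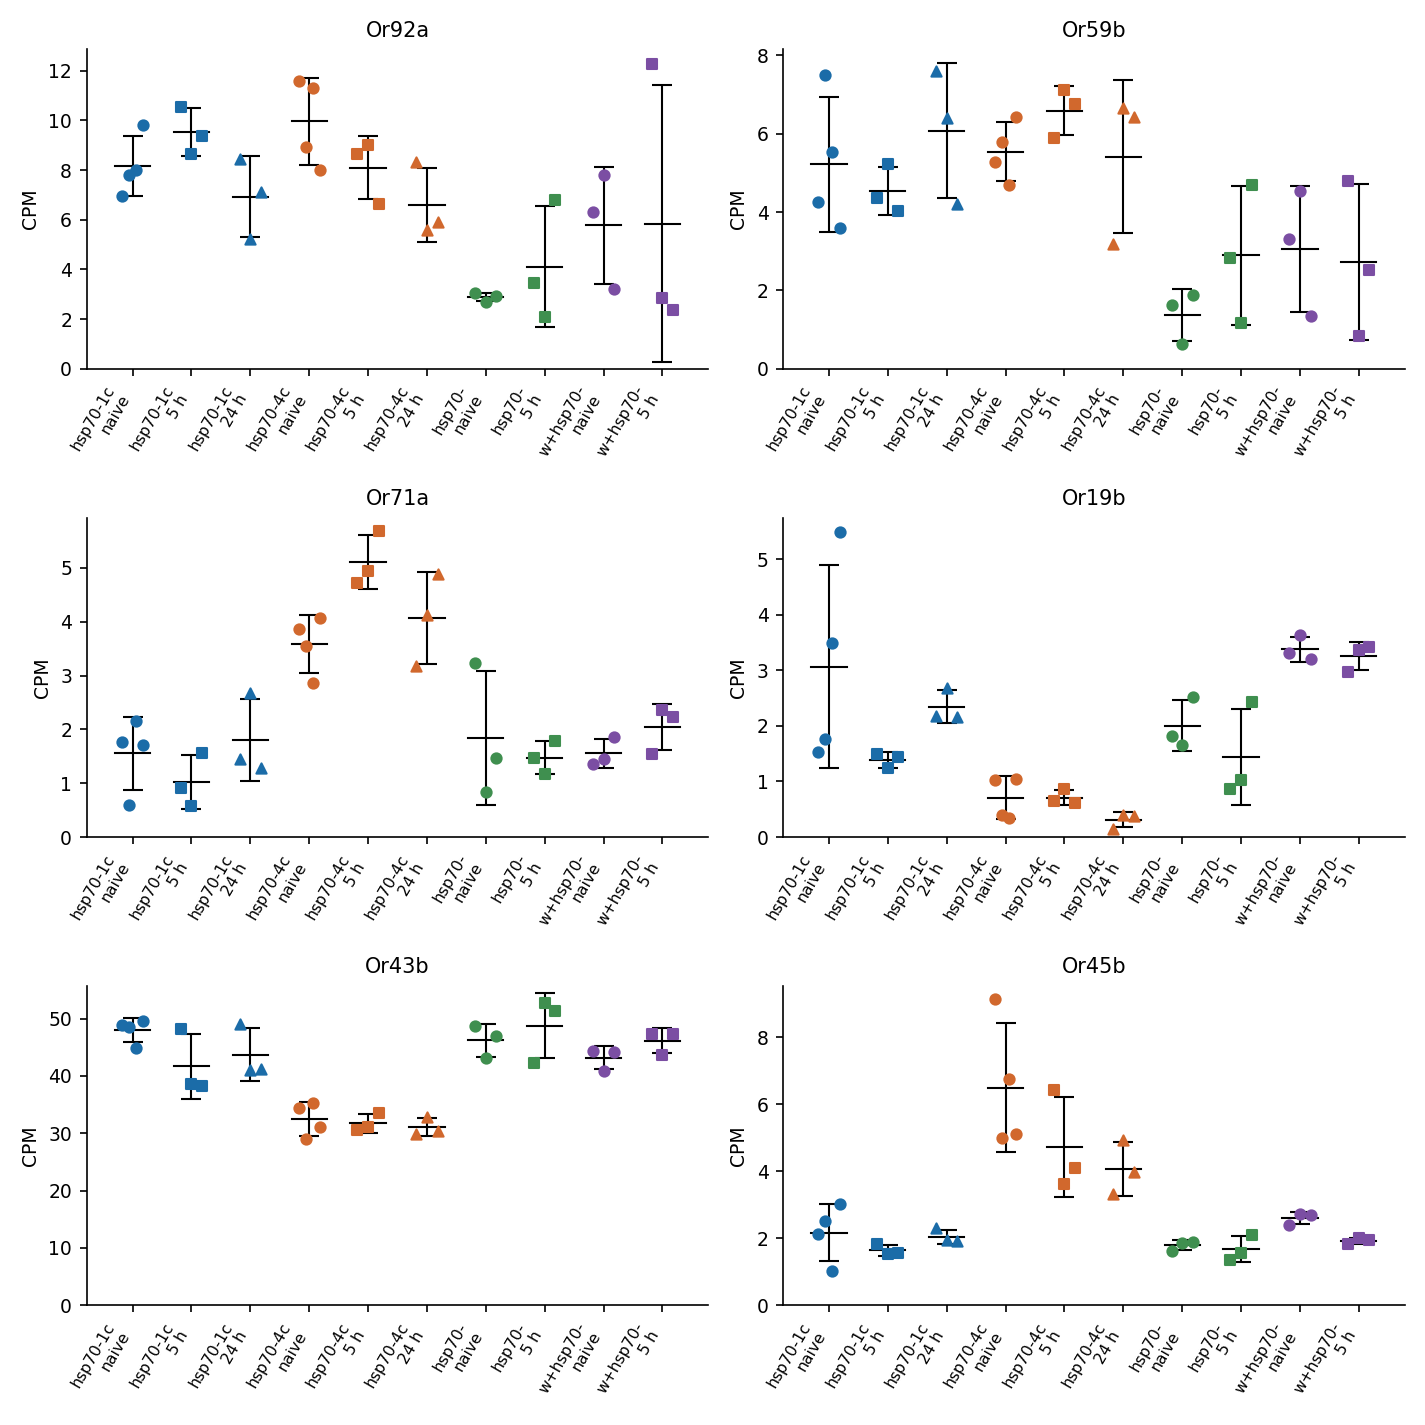
CPM of Or92a, Or59b, Or71a, Or19b, Or43b and Or45b in every library, by strain, with circles for naive, squares for 5 h and triangles for 24 h; these receptors were picked for the plot after their values were seen. By strain mean, Or45b and Or71a are highest in hsp70-4c and Or43b and Or19b are lowest there, and Or92a and Or59b are low in naive hsp70-. The first naive hsp70- library reads 3.23 CPM of Or71a, above the lowest naive hsp70-4c library at 2.86 CPM.

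Summed over classes, the antennal basiconic and coeloconic receptors without Or43b came to 50.9 ± 2.59 CPM (SD, n = 4) in naive hsp70-1c, 55.9 ± 3.01 (n = 4) in hsp70-4c, 31.7 ± 5.46 (n = 3) in hsp70- and 37.6 ± 7.14 (n = 3) in w+hsp70-. The trichoid and intermediate receptors came to 20.9 ± 3.06, 16.0 ± 1.58, 11.4 ± 1.23 and 17.7 ± 2.68 CPM in the same order. The palp receptors came to 13.4 ± 1.29, 20.2 ± 3.17, 11 ± 1.67 and 12.1 ± 0.220 CPM, so that hsp70-4c held the highest values there. The larval receptors came to 12.6 ± 2.56, 14.8 ± 1.83, 13.9 ± 1.84 and 12.7 ± 1.26 CPM and overlapped in all 4 strains. These sums are descriptions and were not tested.

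The summed level of the receptors was set against Orco in each library. Without Or43b, they stood at 1.34 ± 0.149 (SD, n = 10) times the CPM of Orco in hsp70-1c libraries and 1.25 ± 0.162 (n = 10) times in hsp70-4c, over all times. The ratio was 1.78 ± 0.284 (n = 6) in hsp70- and 1.76 ± 0.301 (n = 6) in w+hsp70-. The ranges overlapped, from 1.06 to 1.61 in hsp70-4c and from 1.46 to 2.22 in hsp70-, and the ratio was not tested.

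The other genes of olfactory sensilla were compared through lists grouped by known function. Of 13 genes of the sensillum fluid and support cells, 11 were lower in naive hsp70- than in hsp70-1c and none was higher, with a median log2 difference of -0.87. They included the odorant binding proteins Obp19a (-1.62, SE 0.17, adjusted p = 5.03e-05) and Obp19d (-0.59, SE 0.09, adjusted p = 5.97e-04), and Snmp1 (-0.65, SE 0.12, adjusted p = 0.00354), a membrane protein needed to sense cis-vaccenyl acetate. Against hsp70-4c, 10 of the 13 were lower and none was higher, with Obp28a at -1.09 (SE 0.14), Obp83b at -1.20 (SE 0.21) and the ammonium transporter Amt at -1.12 (SE 0.22). The naive sums were 7786 to 8629 CPM in hsp70-1c, 7422 to 8005 in hsp70-4c, 4720 to 6294 in hsp70- and 5759 to 7506 in w+hsp70-.

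Among the antennal ionotropic receptors, 11 of 17 were tested and none passed between naive hsp70- and hsp70-1c. Between hsp70- and hsp70-4c 2 were lower, Ir75a (-3.62, SE 0.36, adjusted p = 1.50e-06) and Ir75b (-3.80, SE 0.37, adjusted p = 9.84e-07), which are acid receptors. Both were also higher in hsp70-4c than in hsp70-1c (2.41 and 2.73). The carbon dioxide receptor Gr63a was lower in hsp70- than in hsp70-4c (-1.62, SE 0.51, adjusted p = 0.0397). The ionotropic co-receptor Ir25a and acj6, a transcription factor of olfactory neurons, did not pass in any comparison between naive strains. Of 7 such transcription factors 5 were tested, and none passed between naive hsp70- and hsp70-1c or hsp70-4c. Their sums overlapped, at 115.1 to 144 CPM in hsp70-1c, 130 to 166 in hsp70-4c, 118 to 185 in hsp70- and 128 to 159 in w+hsp70-. Whether the reads of these factors in whole heads come from olfactory neurons was not tested.

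Markers of other head cell types were examined in the same way. No pan-neuronal gene of 6 tested passed between naive hsp70- and hsp70-1c or hsp70-4c, and the sums overlapped, at 1083 to 1153 CPM in hsp70-1c, 965 to 1273 in hsp70-4c and 682 to 1302 in hsp70-. Of the 6 tested chordotonal genes of the second antennal segment, nompC was higher in hsp70- than in hsp70-1c (0.85, SE 0.24, adjusted p = 0.0342) and none passed against hsp70-4c, with sums of 16.6 to 21.9, 20.3 to 21.0 and 19.6 to 21.7 CPM in the 3 strains. Photoreceptor genes summed to 46091 to 49282 CPM in naive hsp70-1c, 33435 to 39292 in hsp70-4c and 47411 to 59768 in hsp70-, and 7 of 12 were higher in hsp70- than in hsp70-4c. Head fat body genes summed to 4630 to 5982 CPM in naive hsp70-1c, 2330 to 3228 in hsp70-4c and 1580 to 2177 in hsp70-. Glial genes summed to 2591 to 2932 CPM in naive hsp70-1c, 2650 to 3035 in hsp70-4c and 2390 to 2448 in hsp70-, which lay below both. Of 6 glial genes, the glutamine synthetase Gs2 was lower in hsp70- than in hsp70-1c (-0.34, SE 0.07, adjusted p = 0.00681), and Gs2 (-0.27, SE 0.07) and nrv2 (-0.41, SE 0.10), a sodium pump subunit, were lower than in hsp70-4c. Muscle sums overlapped, with 0 of 9 genes called against hsp70-1c and 2 of 9, Mlc2 and Tm2, lower than in hsp70-4c. Gut enzyme genes, which overlapped, reached 24079.6 CPM in a naive hsp70-1c library. The part of these cell types in the receptor levels was not tested.

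The comparisons between strains were repeated at 5 h in libraries not used for the naive ones. Fewer members passed, with 2 of 33 between hsp70-4c and hsp70-1c, where 5.61% of all genes did, and none between hsp70- and hsp70-1c, where 4.37% did. Between hsp70- and hsp70-4c 4 members passed (14.8% of all genes), namely Or43b, Or45b, Or71a (-1.80, SE 0.33, adjusted p = 0.00154) and Or85b (-1.30, SE 0.42, adjusted p = 0.0462). Between w+hsp70- and hsp70-4c 4 passed (9.3% of all genes), namely Or19b, Or43b, Or45b and Or71a (-1.32, SE 0.31, adjusted p = 0.0136). Without the first w+hsp70- library at 5 h, 9 members passed in place of these 4. Or85b lost its call without any of the 6 libraries compared, and Or71a in w+hsp70- without 3 of 6. None passed between w+hsp70- and hsp70-1c (0.466% of all genes) or between w+hsp70- and hsp70- (0.266%), by edgeR's quasi-likelihood test, with 2 and 1 at an unadjusted p under 0.05, and 5 between hsp70- and hsp70-1c. DESeq2's Wald test called 0 members in these 3 comparisons.

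Directions were mostly the same at both times. Of the members called in naive flies, 5 of 5 had the same sign at 5 h between hsp70-4c and hsp70-1c, 6 of 7 between hsp70- and hsp70-1c, 11 of the 12 tested between hsp70- and hsp70-4c, and 9 of 9 between w+hsp70- and hsp70-4c. The exception in both cases was Or46a. The share of all genes that kept their sign is not given here, so this is not read as particular to the members. At 5 h Orco read 42.0, 36.6 and 47.0 CPM in hsp70- and 68.2, 68.9 and 74.3 CPM in hsp70-1c, again without overlap (log2 -0.75, SE 0.33), but did not pass (adjusted p = 0.259). The SE of Orco in that fit was above the 0.15 of the naive one. The third hsp70-4c and the first w+hsp70- library at 5 h, described above for Orco, entered that fit.

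**Figure D4:**
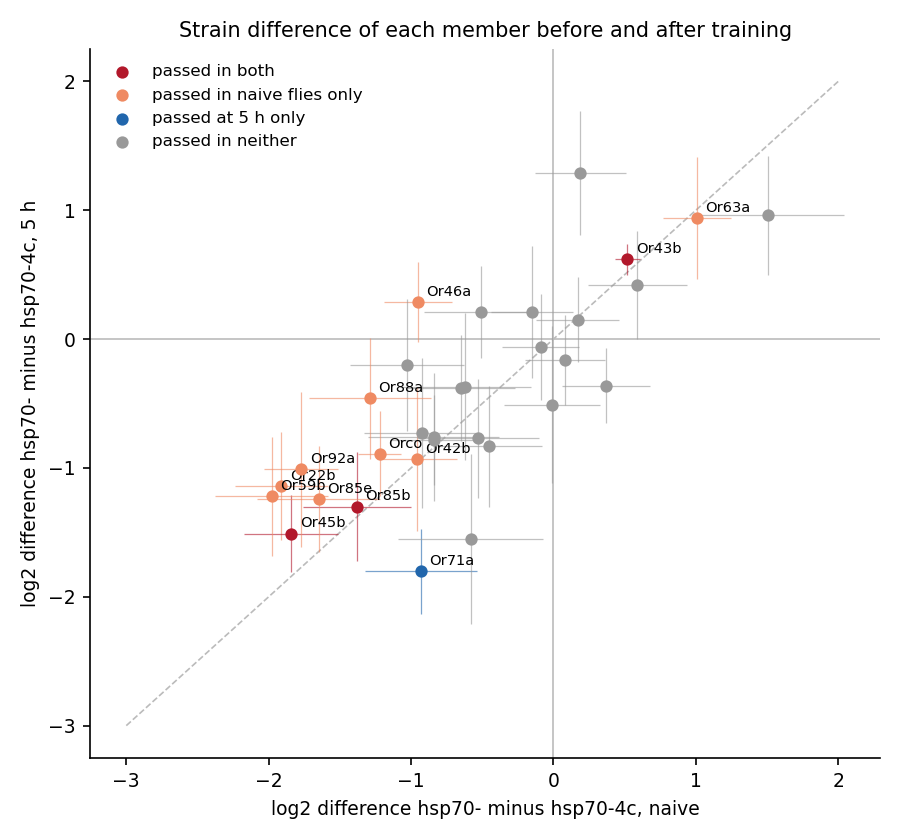
Log2 difference of hsp70- from hsp70-4c for the 32 members tested at both times, in naive flies (horizontal) and at 5 h (vertical), with standard errors; the dashed line marks equal differences and the libraries on the axes are different ones. The sign was the same for 27 of 32 members, and Orco, Or92a and Or59b lie below 0 at both times.

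With naive and 5 h libraries together in 1 fit, an alternative added after the values were seen, Orco was lower in hsp70- than in hsp70-1c by -0.87 on the log2 scale (SE 0.18, adjusted p = 0.00219) and than in hsp70-4c by -1.06 (SE 0.18, adjusted p = 1.47e-04). It was then also lower in w+hsp70- than in hsp70-1c (-0.61, SE 0.18, adjusted p = 0.0466), the only member of 38 called there (5.42% of all genes). In that fit 9 members were called between hsp70-4c and hsp70-1c (13.7% of all genes), 7 between hsp70- and hsp70-1c (14.3%), 18 between hsp70- and hsp70-4c (26.7%), 13 between w+hsp70- and hsp70-4c (17.8%) and 0 between w+hsp70- and hsp70- (0.932%).

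At 24 h, where only hsp70-4c and hsp70-1c were sampled, 2 of 32 members passed, where 4.2% of all genes did, Or19b and Or43b (-0.50, SE 0.11, adjusted p = 0.0333, lost without 5 of the 6 libraries). Or19b entered that fit only through hsp70-1c, where it is high. Orco read 84.2, 70.3 and 76.0 CPM against 67.7, 57.5 and 72.9 CPM (0.21, SE 0.12, adjusted p = 0.482). In all, 17 of the 60 members were called between some pair of strains at some time, and each of the 17 was called in a naive comparison.

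Time after training gave no called member in the main fits. With all 32 libraries in 1 fit, a member was called in hsp70-4c from naive to 5 h. Leaving out 1 library gave at most 1 in w+hsp70- at 5 h. In each of the 8 comparisons of times within a strain and the 3 comparisons of responses between strains, no member passed edgeR's quasi-likelihood test, and DESeq2's Wald test called 0 as well. The share of all genes called was 3.51% in hsp70-1c at 5 h, 0.0% at 24 h and 1.36% between 24 h and 5 h, and 5.48%, 0.923% and 0.981% in hsp70-4c. It was 0.0305% in hsp70- and 1.93% in w+hsp70- at 5 h, and 0.0465%, 0.0% and 0.0% for the differences in response. At an unadjusted p under 0.05 there were 0 to 4 members in each comparison, without the share of all genes at that p beside them. In hsp70-1c and hsp70-4c 35 members could be tested, 17 in hsp70- and 21 in w+hsp70-.

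Orco did not pass at any time, with a log2 change of -0.01 (SE 0.10) at 5 h and -0.10 (SE 0.10) at 24 h in hsp70-1c, and of -0.11 (SE 0.13) and -0.12 (SE 0.13) in hsp70-4c. In hsp70- it changed by 0.24 (SE 0.14) and in w+hsp70- by -0.21 (SE 0.48) at 5 h, the last with the widest error. Adjusted p-values were 0.690 to 0.981 in hsp70-1c and hsp70-4c, 0.860 in hsp70- at 5 h and 0.937 in w+hsp70- at 5 h.

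The palp receptor Or42a came nearest to the threshold. It read 1.67, 1.58, 1.94 and 1.84 CPM in naive hsp70-4c, 0.393, 1.02 and 0.725 CPM at 5 h and 0.907, 0.533 and 0.643 CPM at 24 h. The naive libraries lay above all trained ones (5 h log2 -1.30, SE 0.37, adjusted p = 0.0535, and 24 h -1.34, SE 0.37, adjusted p = 0.0926). These comparisons share the naive libraries. Or42a had 13, 12, 17 and 14 reads in naive hsp70-4c, 3, 7 and 6 at 5 h and 6, 4 and 5 at 24 h. It had enough reads to be tested in hsp70-4c only through the naive libraries, where it is high. Its place nearest to the threshold thus gives no support of its own. In hsp70-1c Or42a read 1.30, 0.884, 1.33 and 1.32 CPM in naive flies, 0.918, 1.42 and 0.912 CPM at 5 h and 0.483, 0.745 and 1.53 CPM at 24 h, with overlap at both times. By title the naive libraries of hsp70-4c were a 5 h control, whereas the time label calls them naive.

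Over the family, the median log2 change was -0.20 at 5 h and -0.14 at 24 h in hsp70-1c, with 25 and 26 of 35 members below 0. It was -0.18 and -0.23 in hsp70-4c, with 25 and 29 of 35 below 0. In hsp70- it was 0.02, with 7 of 17 below 0, and in w+hsp70- -0.05, with 11 of 21 below 0. The 2 comparisons of a strain share its naive libraries. The same values over all genes are not given here, so these are not read as a response of the family.

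**Figure D5:**
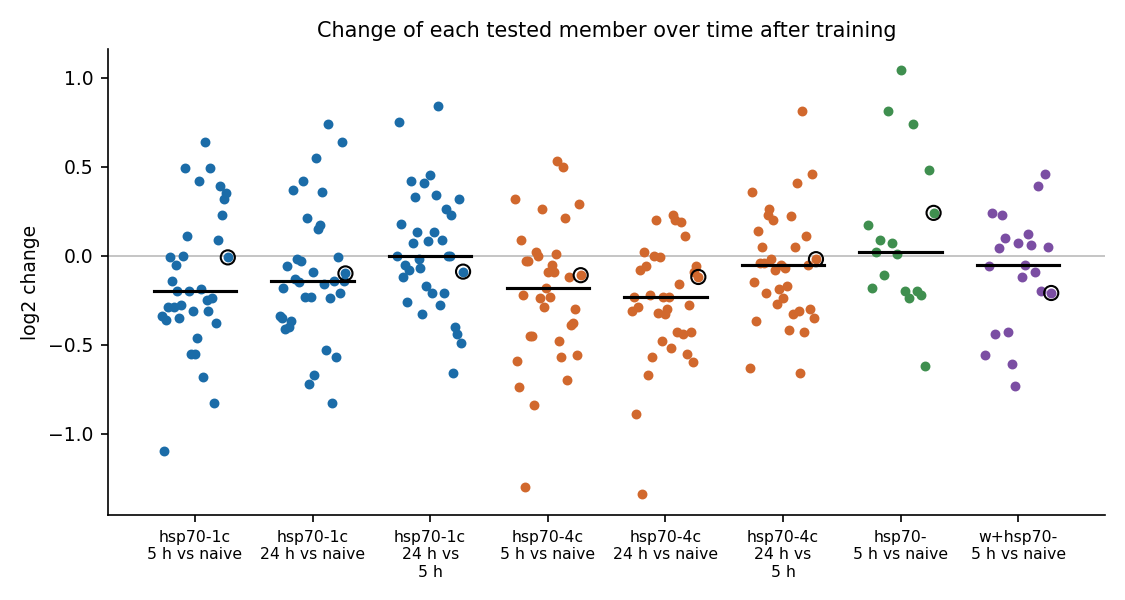
Log2 change of each tested member in the 8 comparisons of times within a strain; points are members, the ringed point is Orco and bars are medians. The medians lie between -0.23 and 0.02 and no member passed the test.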

How the data were processed

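Polyadenylated RNA from male heads was sequenced as 75-bp single-end reads from a directional kit, per the labels' protocols. The authors deposited raw gene counts, 1 file for each library. Per the submitters' processing notes they used Trimmomatic, STAR 2.5.0a, featureCounts 1.5.0-p1 and build dm6; settings, strand handling and annotation release are not given in the sources used here. In 32 of 32 files the gene counts added up to the assigned reads. Of the reads a file accounts for, 58.15 to 68.66% fell in no counted feature. Whether they lay outside genes, in introns or on the other strand is not given. Of 17559 identifiers 17253 had a symbol.

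Groups came from the labels. Tests used edgeR 4.0.16 under R 4.3.3 (with TMM scaling, filterByExpr, group-means model, robust quasi-likelihood test, 2-sided, Benjamini-Hochberg adjustment over all genes tested, called at an adjusted p under 0.05). Strain comparisons used the libraries of all strains at 1 time, comparisons of times the libraries of 1 strain, and differences in response an interaction contrast. The p-values measure the spread between pools of flies. CPM values use TMM effective library sizes over the 32 libraries; levels between genes are per kilobase of annotated exon. Exon overlaps come from the Ensembl BDGP6 annotation in dm6 coordinates. The check of overlapping genes used genes of at least 300 bp (noncoding, for the other strand) with at least 95% of their exon bases in 1 coding gene of at least 3000 reads. That check, the split of members by shared exon bases, the naive and 5 h fit and the plotted receptors were chosen after values were seen. The members and gene lists were themselves chosen with earlier results of these data known. Named genes were Orco, members past the threshold (of 13 in 1 comparison, the 12 with the smallest p), the 10 highest per kilobase and up to 4 genes of a list per comparison, plus w and Hsp70Bc. The fits were tested on simulated data.

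Replicate numbers did not pair the libraries (correlations of same-numbered deviations from -0.374 to 0.443, never all above 0.1 in a comparison). Alternatives were DESeq2 size factors, DESeq2's Wald test (DESeq2 1.42.0), no low-count filter, all 32 libraries in 1 fit, the replicate number as a block and leaving out each library. Scripts ran in Python 3.11.15 with NumPy 2.4.6, pandas 2.3.3 and matplotlib 3.10.9. No sequences were printed.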

Additional observations from a re-analysis of the deposited data

Results flagged for a closer look

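In groups of 4 libraries, the highest or lowest value was compared with the others by its gap over the range, at Dixon's 95% critical value. Chance sets apart about 1 in 20 groups, and 34 groups of a member and strain were examined. Orco in the third naive hsp70-4c library was 92.0 CPM, above the other 3 at 80.4 to 81.3 CPM. Or85b in the first naive hsp70-4c library was 3.35 CPM, above the others at 2.5 to 2.63 CPM. Or47a in the fourth naive hsp70-4c library was 0.920 CPM, below the others at 1.67 to 1.71 CPM.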

How the results depend on the processing

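Of 49 tests of named members recomputed, 49 kept direction and side of the threshold with DESeq2 size factors, 46 without the low-count filter, 42 with all 32 libraries in 1 fit, 41 with the replicate block and 39 with DESeq2's Wald test. None changed sign in any alternative run. Leaving out 1 library kept 267 of 331 values, lost the call in 63 and gained it in 1.

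Counts of called members moved as follows, without the share of all genes called in the same fit unless it is stated. With all 32 libraries in 1 fit they were 9 (hsp70- and hsp70-4c at 5 h), 7 (w+hsp70- and hsp70-4c at 5 h), 4 (hsp70-4c and hsp70-1c at 24 h) and 1 (hsp70-4c from naive to 5 h). The replicate block left 1 between hsp70-4c and hsp70-1c at 24 h. DESeq2's Wald test gave 1 between naive w+hsp70- and hsp70-1c. With naive and 5 h libraries together there were 9 between hsp70-4c and hsp70-1c (13.7% of all genes) and 1 between w+hsp70- and hsp70-1c (5.42%).

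Without 1 library the naive counts ranged from 3 to 5 (hsp70-4c and hsp70-1c), 4 to 7 (hsp70- and hsp70-1c), 7 to 15 (hsp70- and hsp70-4c), 6 to 9 (w+hsp70- and hsp70-4c) and 0 to 2 (w+hsp70- and hsp70-). At 5 h they ranged from 0 to 1 (hsp70- and hsp70-1c), 3 to 6 (hsp70- and hsp70-4c), 0 to 1 (w+hsp70- and hsp70-1c) and 3 to 9 (w+hsp70- and hsp70-4c, the 9 without the first w+hsp70- library). At 24 h they ranged from 1 to 2, and from naive to 5 h in w+hsp70- from 0 to 1. The share of all genes called without a library is not given here or above. The cause was not tested, apart from each such fit holding fewer libraries. Depth limits the receptors, and 25 of 60 members were not tested in naive flies.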
